A study of Mus musculus with 26 samples.

Results

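Mouse embryonic stem cells that lack Esrrb and carry a doxycycline-inducible ERR beta deficient in DNA binding (KO_ERRb_DBDm3) were compared with the same knockout carrying an empty construct (KO_mock). The comparison took the 4 KO_ERRb_DBDm3 libraries, from clones 9-6 and 9-8, and the 4 KO_mock libraries, from clones 12-1 and 12-3, which were 8 of the 26 RNA-seq libraries of the series. Each clone's 2 libraries were added together, which left 2 clones in each group (n = 2). Every group received doxycycline at 2 µg/ml for 3 days after 1600 cells had been seeded, KO_mock cells included. The medium was N2B27 with the MEK inhibitor PD and the GSK3 inhibitor CH, and the labels disagree on whether LIF was added. Knockout cells that carry wild-type ERR beta (KO_ERRb_wt) and unedited cells that carry an empty construct (WT_mock) were used as side references, with 4 libraries from 2 clones each. The labels do not say which residues are changed in DBDm3, or whether the 2 libraries of a clone came from separate cultures. Library totals of the 8 libraries ran from 21276790 to 28300776 counts.

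ERR beta is an orphan nuclear receptor of the estrogen-related receptor family and part of the network of transcription factors that holds mouse embryonic stem cells in the naive state. It contacts DNA through a zinc-finger domain that reads an extended half-site, TNAAGGTCA. It recruits coactivators through a separate C-terminal activation function, and the study also addressed its contact with TFIIH, the general transcription factor that opens promoters. The comparison asks what a receptor that binds DNA poorly does to expression in cells without the wild-type protein.

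Chromosomes 6 and 8 stood apart from all other chromosomes in both KO_ERRb_DBDm3 clones, and their genes are therefore described on their own below. Outside them, the neural transcription factor gene Olig2, the laminin chain gene Lama3, the cation channel gene Trpm1 and the placental transcription factor gene Tfap2c were higher than in KO_mock. The homeobox gene Meis2, the imprinted RNA H19, the DNA methylation cofactor gene Dnmt3l and the MAPK inhibitor gene Spry4 were lower. The call of H19 was lost without clone 9-6 or 9-8, and that of Spry4 without clone 12-1 or 12-3. The naive pluripotency gene Prdm14 was 3.00-fold higher, Tfcp2l1 was higher by less, and Pou5f1 did not pass the test. Nanog, which lies on chromosome 6, was also higher by less, a call lost without clone 12-1.

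Esrrb itself (mm10 chromosome 12, 86361117 to 86521628, plus strand) read 483, 479, 563 and 544 CPM (library-scaled counts, normalised by the TMM method) in the KO_ERRb_DBDm3 libraries, against 271, 283, 277 and 276 CPM in the KO_mock libraries. The groups did not overlap. The log2 fold change was 0.90 ± 0.074 (standard error, edgeR adjusted p = 6.85e-05), which is 1.87-fold higher. Levels were 419.6 ± 13.5 CPM in KO_ERRb_wt and 581 ± 29.9 CPM in WT_mock (SD, n = 2 each), and KO_ERRb_DBDm3 exceeded KO_ERRb_wt by 0.30 ± 0.074 on the log2 scale (edgeR adjusted p = 0.0097). KO_mock libraries still held 5855 to 6905 Esrrb counts, and the counts do not separate transcripts of the edited locus from those of the construct. Esrra, the ubiquitous family member, averaged 25.9 CPM in KO_ERRb_DBDm3 and 24.9 CPM in KO_mock (log2 fold change 0.06 ± 0.10, adjusted p = 0.73). Esrrg had 1 count in 1 KO_ERRb_DBDm3 library and 0 counts in the KO_mock libraries.

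Embryonic stem cell identity was checked on 6 defining markers, Pou5f1, Sox2, Nanog, Zfp42, Utf1 and Tdgf1. Their summed level was 2443 to 2642 CPM across the KO_ERRb_DBDm3 libraries and 2376 to 2516 CPM across the KO_mock libraries. Of the 6 markers 2 were called higher, 1 lower and 3 did not pass, beside 25.7% of all tested genes called. Markers of other cell types were scarce in both groups. The 6 primitive endoderm markers summed to 1.74 to 2.05 CPM in KO_ERRb_DBDm3 and 2.09 to 2.91 CPM in KO_mock, and none of them passed in edgeR (0 also at an unadjusted p below 0.05). The 5 trophoblast markers summed to 2.92 to 3.52 CPM in KO_ERRb_DBDm3 and 3.63 to 6.27 CPM in KO_mock. Elf5, Gata3 and Hand1 were below 1 CPM in all 8 libraries. Of the 3 trophoblast markers tested, 1 was called higher, 1 lower and 1 did not pass. The 6 fibroblast markers summed to 2.17 to 3.14 CPM in KO_ERRb_DBDm3 and 1.86 to 3.00 CPM in KO_mock, with Postn at 0 counts in every one of them. The 5 neuroectoderm markers summed to 20.5 to 41.6 CPM in KO_ERRb_DBDm3 and 43.1 to 57.7 CPM in KO_mock, most of it from Tubb3 on chromosome 8. Of the 4 neuroectoderm markers tested, 2 were called higher, 1 lower and 1 did not pass, again beside 25.7% of all tested genes called. The part of other cell types in the results was not tested, and in bulk libraries fewer cells of a type and less RNA per cell cannot be told apart.

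Of 24421 genes in the count table, 15238 passed the filter on low counts. Expression was modelled over all 14 clones of the series with edgeR's quasi-likelihood test, and a gene was called at a Benjamini-Hochberg adjusted p below 0.05. The test called 3915 genes, 25.7% of those tested, with 1887 higher and 2028 lower in KO_ERRb_DBDm3. Outside chromosomes 6 and 8 it called 1854 genes higher (13.5% of 13707) and 1143 lower (8.34%). Among these, 500 were at least 2-fold higher and 294 at least 2-fold lower. In 2994 of the 2997 called genes both KO_ERRb_DBDm3 clones lay on 1 side of both KO_mock clones, as they did in 60.1% of all genes tested there. These counts rest on both KO_mock clones: without clone 12-1 the test called 1049 genes outside chromosomes 6 and 8, and without clone 12-3 it called 1094. They also moved with the KO_ERRb_DBDm3 clone, with 4773 called without clone 9-6 and 1687 without clone 9-8.

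Genes of chromosomes 6 and 8 were lower across their whole length. On chromosome 6, 419 of 736 tested genes were called lower (56.9%) and 21 higher (2.85%). On chromosome 8, 466 of 795 were called lower (58.6%) and 12 higher (1.51%). Both chromosomes held 10.0% of the tested genes and 23.4% of the called ones. The median log2 fold change was −0.63 on chromosome 6 and −0.53 on chromosome 8, whereas it lay between −0.0071 and 0.092 on each of the other autosomes and X.

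The 2 clones differed in the size of the chromosome 6 shift and were close on chromosome 8. Against the mean of the KO_mock libraries, the median of chromosome 6 was −0.93 and −0.94 in the 2 libraries of clone 9-8 and −0.41 and −0.41 in those of clone 9-6. The KO_mock libraries lay between −0.012 and 0.020. The median of chromosome 8 was −0.52 and −0.53 in clone 9-8 and −0.52 and −0.52 in clone 9-6, with the KO_mock libraries between −0.011 and 0.016. All 4 KO_ERRb_DBDm3 libraries therefore lay below all KO_mock libraries on both chromosomes. Chromosome 6 took 4.49% and 4.53% of the counts in clone 9-8 and 6.597% and 6.57% in clone 9-6, against 8.32% to 8.46% in KO_mock. Chromosome 8 took 4.15% to 4.17% in KO_ERRb_DBDm3 and 5.88% to 5.93% in KO_mock.

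**Figure D1:**
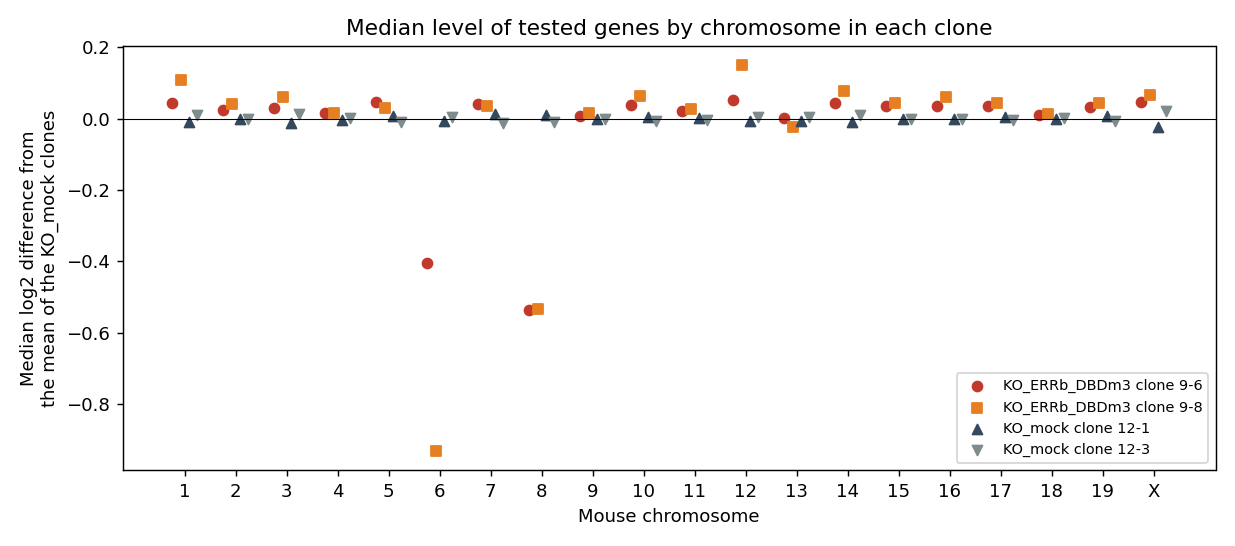
Median log2 difference of the tested genes of each chromosome from the mean of the KO_mock clones (y axis), by chromosome (x axis), with 1 point for each of the 4 clones. Chromosome 6 sits at −0.93 in clone 9-8 and −0.41 in clone 9-6, and chromosome 8 at −0.53 and −0.54, while the other chromosomes stay between −0.022 and 0.15.

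The shift covered both chromosomes along their length. In stretches of 25 neighbouring tested genes, the median ran from −0.91 (chromosome 6, 42286685 to 48445825) to −0.31 (87913976 to 90475209). On chromosome 8 it ran from −0.74 (123254195 to 124751809) to −0.23 (28646717 to 36249516). No stretch on either chromosome reached 0. When scaling factors were computed inside each chromosome, so that a shift of the whole chromosome was removed, 184 genes of chromosome 6 (101 higher and 83 lower) and 186 of chromosome 8 (104 higher and 82 lower) were called. Copy number was not measured. WT_mock and KO_ERRb_wt did not carry the shift, with chromosome medians from −0.027 to 0.021 on 6 and 8 against KO_mock. Both KO_ERRb_DBDm3 clones carried it, and no clone of KO_mock or KO_ERRb_wt did. Effects of the mutant receptor and of the shift therefore cannot be told apart against either group, also for genes on other chromosomes. On chromosome 14, WT_mock lay 0.61 above KO_mock in each of its clones. KO_ERRb_DBDm3 (0.045 and 0.079) and KO_ERRb_wt (0.020 and 0.040) lay near KO_mock there, and the cause was not tested.

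The genes of chromosome 6 named by the largest changes, among called genes averaging at least 1 on the log2 CPM scale, were as follows. Epha1, an ephrin receptor gene on chromosome 6 (42358487 to 42373268, minus strand), read 16.99, 12.6, 6.55 and 5.85 CPM in the KO_ERRb_DBDm3 libraries, against 74.2, 67.4, 74.5 and 59.1 CPM in the KO_mock libraries. It fell by 2.70 ± 0.41 on the log2 scale (edgeR adjusted p = 0.0012), and its neighbour Zyx, which encodes the focal adhesion protein zyxin, fell by 2.54 ± 0.36 (adjusted p = 0.00081). The cyclin D2 gene Ccnd2 averaged 2.29 CPM in KO_ERRb_DBDm3 and 12.2 CPM in KO_mock, and fell by 2.42 ± 0.25 (adjusted p = 0.00013), and the zinc-finger gene Zfp467 fell by 2.32 ± 0.46. Other genes of chromosome 6 rose. Ccdc136 read 67.7, 77.4, 84.8 and 85.2 CPM in KO_ERRb_DBDm3 libraries, against 24.5, 22.6, 26.4 and 23.1 CPM in KO_mock libraries, a log2 fold change of 1.70 ± 0.12 (adjusted p = 6.85e-05). Vwf, the gene of von Willebrand factor, rose by 1.49 ± 0.23, Slc4a5, a sodium bicarbonate cotransporter gene, by 1.32 ± 0.21, and Samd9l by 1.23 ± 0.36, although the call of Samd9l was lost without clone 9-8, 12-1 or 12-3 (highest adjusted p = 0.24).

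On chromosome 8 the lowest called genes, among those averaging at least 1 on the log2 CPM scale, were Ido2, a tryptophan-degrading enzyme gene (−2.25 ± 0.42), Ufsp2 (−1.87 ± 0.30), and the adjacent basement membrane collagen genes Col4a2 (−1.78 ± 0.28) and Col4a1 (−1.69 ± 0.20). Col4a1 read 19.95, 13.4, 12.97 and 11.5 CPM in KO_ERRb_DBDm3 libraries, against 49.7, 42.0, 50.3 and 44.9 CPM in KO_mock libraries, so the groups did not overlap (edgeR adjusted p = 3.0e-04). The highest by the same limit were Pkd1l2 (1.18 ± 0.37), Cdyl2 (0.91 ± 0.10), the meiotic gene Tex15 (0.90 ± 0.25) and Sfrp1, a secreted Wnt antagonist gene (0.89 ± 0.17). Pkd1l2 and Tex15 lost their calls without clone 9-8, 12-1 or 12-3, with adjusted p up to 0.20 and 0.26.

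Outside chromosomes 6 and 8, Olig2 (chromosome 16, 91225550 to 91228677, plus strand), a basic helix-loop-helix factor of oligodendrocyte and motor neuron progenitors, had the highest fold change of the named genes. It read 4.01 and 2.47 CPM in the libraries of clone 9-6 and 20.3 and 17.7 CPM in those of clone 9-8, against 0.221, 0.327, 0.160 and 0.188 CPM in KO_mock. The log2 fold change was 5.62 ± 0.82 (edgeR adjusted p = 0.00094), and both clones lay above KO_mock, which the rule for naming genes required. Its level was 0.363 CPM in KO_ERRb_wt and 0.846 CPM in WT_mock. Mobp, a myelin gene, rose by 3.62 ± 0.60, with 4.80 and 16.1 CPM in the 2 KO_ERRb_DBDm3 clones and 1.18 and 0.519 CPM in the 2 KO_mock clones.

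Trpm1 (chromosome 7, 64153835 to 64269759, plus strand), which encodes a cation channel of retinal bipolar cells and melanocytes, was the most abundant of the 12 highest genes. It read 102, 116, 238 and 234 CPM in the KO_ERRb_DBDm3 libraries, against 16.4, 17.1, 17.8 and 18.2 CPM in the KO_mock libraries. That is 9.91-fold higher (log2 fold change 3.31 ± 0.32, edgeR adjusted p = 0.00013). Its level was 10.4 ± 1.66 CPM in KO_ERRb_wt, and the mutant exceeded it by 4.05 on the log2 scale (adjusted p = 4.4e-05). Dnajc6, the gene of the clathrin-uncoating protein auxilin, read 47.1, 53.2, 159.98 and 159.8 CPM in KO_ERRb_DBDm3 libraries, against 15.7, 14.5, 15.7 and 15.8 CPM in KO_mock libraries (2.76 ± 0.43, adjusted p = 0.0014).

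Lama3 (chromosome 18, 12334024 to 12583012, plus strand), the alpha 3 chain of epithelial laminin, read 11.5, 10.6, 24.2 and 21.5 CPM in the KO_ERRb_DBDm3 libraries, against 1.95, 1.78, 2.53 and 2.92 CPM in the KO_mock libraries (2.88 ± 0.29, edgeR adjusted p = 0.00014). The alcohol dehydrogenase gene Adh1 rose by 3.80 ± 0.40, with 2.81 and 5.64 CPM in the KO_ERRb_DBDm3 clones and 0.341 and 0.260 CPM in the KO_mock clones. The other 6 genes of the group were Kctd12b, the antisense transcript Ptprtos, Ms4a10, the orphan receptor gene Gprc5c, Fhit, a diadenosine triphosphate hydrolase gene at a fragile site, and the taxilin gene Txlnb. Their log2 fold changes ran from 2.84 to 3.45. In all 12 highest genes clone 9-8 lay above clone 9-6, by 0.68 (Fhit) to 2.53 (Olig2) on the log2 scale. All 12 kept their calls without any 1 of the 4 clones, and all 12 were also called higher than in KO_ERRb_wt.

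Meis2 (chromosome 2, 115861264 to 116065058, minus strand), a TALE homeobox factor of limb, heart and nerve development, fell in both clones, whose difference did not pass (0.13, edgeR adjusted p = 0.80). It read 2.57, 1.48, 2.23 and 2.28 CPM in the KO_ERRb_DBDm3 libraries, against 11.3, 12.1, 13.1 and 11.1 CPM in the KO_mock libraries. That is 5.55-fold lower (log2 fold change −2.47 ± 0.18, edgeR adjusted p = 6.85e-05). The germinal centre GTPase gene Nuggc (−2.30 ± 0.23) and Anxa2, a membrane-binding annexin gene (−2.48 ± 0.35), were also lower in both clones. Anxa2 fell further in clone 9-8 (1.27 CPM) than in clone 9-6 (3.32 CPM), a difference of −1.38 on the log2 scale.

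Some genes of this group fell further in clone 9-8 than in clone 9-6. Casq2, the calsequestrin gene of heart muscle, read 3.18 and 1.95 CPM in clone 9-6 and 0.465 and 0.446 CPM in clone 9-8, against 18.7, 14.5, 14.1 and 13.6 CPM in KO_mock (−3.29 ± 0.59, edgeR adjusted p = 0.0029). Clone 9-8 lay below clone 9-6 in Casq2 (difference −2.51 on the log2 scale, adjusted p = 0.025) and in Spry4 (−4.72, adjusted p = 0.00022). Spry4, a feedback inhibitor of FGF and MAPK signalling, read 24.5 and 12.2 CPM in clone 9-6 and 0.744 and 0.670 CPM in clone 9-8, against 67.3, 81.0, 62.4 and 78.4 CPM in KO_mock (−2.87 ± 0.84, adjusted p = 0.032). The call of Spry4 was lost without either KO_mock clone. Spry4 averaged 48.3 CPM in KO_ERRb_wt, and its difference from that group did not pass (−2.30 on the log2 scale, edgeR adjusted p = 0.058). The serotonin receptor gene Htr5a (−3.41 ± 0.61), the tuft cell factor gene Pou2f3 (−3.15 ± 0.68), the lipoxygenase gene Alox15 (−3.09 ± 0.57), the cyclooxygenase 1 gene Ptgs1 (−2.77 ± 0.52), the imprinted gene Nnat (−2.50 ± 0.52) and the homeobox gene Crxos (−2.41 ± 0.50) kept their calls without any 1 of the 4 clones.

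H19, an imprinted non-coding RNA, had the lowest fold change of the named genes. It read 0.470, 0.399, 0.0930 and 0.0893 CPM in the KO_ERRb_DBDm3 libraries, against 7.03, 12.2, 5.93 and 7.20 CPM in the KO_mock libraries (−4.85 ± 1.1, edgeR adjusted p = 0.0089). Each KO_ERRb_DBDm3 clone alone missed the threshold (adjusted p = 0.16 for clone 9-6 and 0.070 for clone 9-8), and WT_mock read 40.0 CPM. H19 averaged 2.21 CPM in KO_ERRb_wt and 8.03 CPM in KO_mock. The difference of KO_ERRb_DBDm3 from KO_ERRb_wt did not pass (−2.997 on the log2 scale, edgeR adjusted p = 0.068). Low H19 was therefore not shown to be particular to KO_ERRb_DBDm3. Part of the exons of H19, 3.67%, is shared with Mir675.

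**Figure D2:**
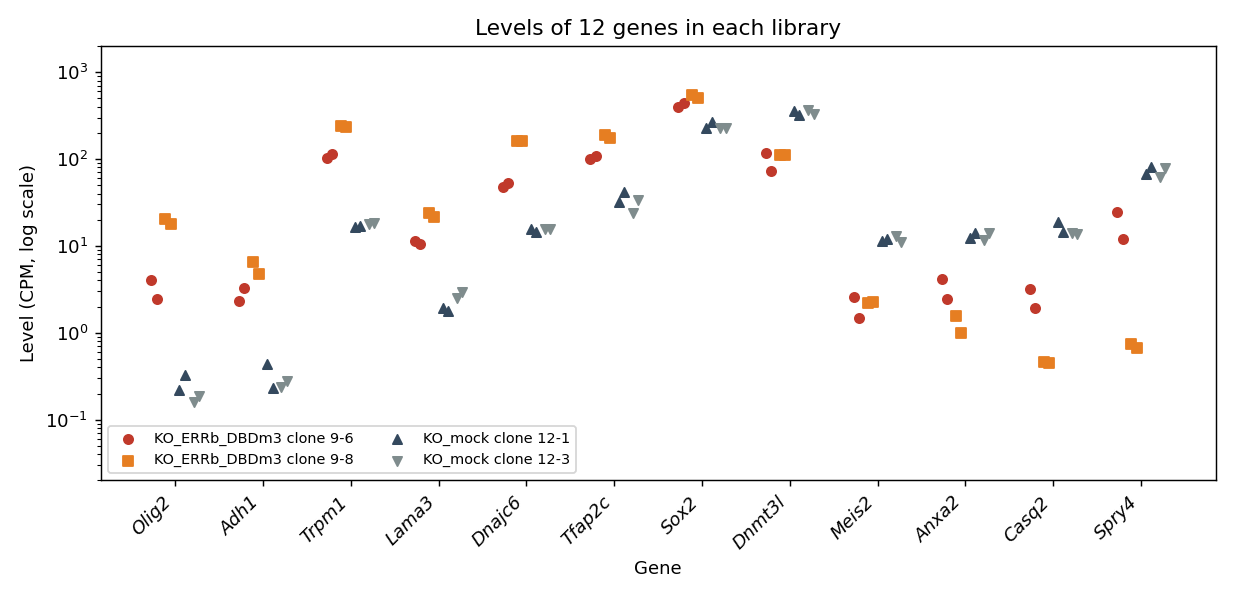
Level of 12 genes (x axis) in each of the 8 libraries (y axis, CPM, log scale), with KO_ERRb_DBDm3 clones left of KO_mock clones for each gene. The first 7 genes lie higher in all KO_ERRb_DBDm3 libraries and the last 5 lower, and in Spry4 the libraries of clone 9-8 lie at 0.744 and 0.670 CPM against 24.5 and 12.2 CPM in clone 9-6.

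ERR response elements were looked for in promoters, since the mutant is described as deficient in DNA binding. Windows from 250 bases before to 50 bases after annotated gene starts (RefSeq, GRCm38.p6) were searched on both strands for TNAAGGTCA and for its core AAGGTCA, which lies within it. Of the 53 genes named outside the lists, 35 had such a window, and only Fhit held the core. That window lies at the downstream start of Fhit in RefSeq, inside the gene, and the upstream start's window does not hold the core. The 2 stretches below are shown because Fhit was among the highest genes and because Hmgcs1, a lower gene of the cholesterol list, held the full element, and capitals mark the core.
Fhit, minus strand of chr14:10453522-10453558, core on the gene's strand: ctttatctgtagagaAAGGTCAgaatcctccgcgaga
Hmgcs1, plus strand of chr13:119690101-119690126, core on the opposite strand: tcacTGACCTTcaattggtcggagaa
The full element occurred in 1.28% of all 32851 windows. It occurred in 0.826% of the windows of genes called higher outside chromosomes 6 and 8, in 0.903% of those called lower and in 0.784% of those not called. The core occurred in 3.75%, 2.71% and 3.51% of the same 3 sets and in 4.72% of all windows. Over the windows of tested genes alone, the full element occurred in 0.786% and the core in 3.46%. For genes called at least 2-fold higher outside chromosomes 6 and 8, the shares were 0.849% and 5.1%. For those called at least 2-fold lower, they were 1.09% and 2.9%. A window without these letters says nothing about binding elsewhere.

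The naive pluripotency list is a set of 18 factors and surface proteins of the ground state. Of these, 9 were called higher, 1 lower and 8 did not pass, and the median log2 fold change was 0.32, beside 0.010 over all genes tested, of which 1887 of 15238 were called higher. Prdm14, a repressor of FGF signalling and DNA methylation, read 25.6, 38.3, 40.6 and 38.5 CPM in the KO_ERRb_DBDm3 libraries, against 10.7, 10.0, 12.6 and 14.1 CPM in the KO_mock libraries (1.59 ± 0.16, edgeR adjusted p = 0.00013). Jam2, an adhesion protein gene, rose by 1.14 ± 0.21. Tfcp2l1, a naive factor that acts beside ERR beta, averaged 659.5 CPM in KO_ERRb_DBDm3 and 488 CPM in KO_mock (0.44 ± 0.071, adjusted p = 0.0016). Nanog, which lies on chromosome 6, averaged 703 CPM in KO_ERRb_DBDm3 and 563 CPM in KO_mock (0.32 ± 0.063, adjusted p = 0.0042), against the chromosome median of −0.63. The 1 member called lower was Zfp42, on chromosome 8 (−0.43 ± 0.088). Outside chromosomes 6 and 8, 7 of 14 members were called higher. The count of members called higher was 8 without clone 9-6, 7 without clone 9-8, 4 without clone 12-1 and 5 without clone 12-3. The call of Nanog was lost without clone 12-1 (adjusted p = 0.054).

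In the general pluripotency list, of 15 members 1 was called higher, 1 lower and 13 did not pass, with a median of −0.062. These counts stand beside 25.7% of all tested genes called. Sox2 read 399.9, 441, 548 and 509.7 CPM in KO_ERRb_DBDm3 libraries, against 229, 264, 224 and 225 CPM in KO_mock libraries (1.01 ± 0.14, edgeR adjusted p = 0.00061), with 256 CPM in KO_ERRb_wt. The RNA-binding protein gene L1td1 fell by 0.40 ± 0.10, a call lost without clone 9-8, 12-1 or 12-3 (highest adjusted p = 0.078). Pou5f1, the core factor Oct4, averaged 841 CPM in KO_ERRb_DBDm3 and 934 CPM in KO_mock (−0.15 ± 0.072, adjusted p = 0.15).

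Formative and primed genes moved both ways. Of 15 members 3 were called higher (Etv5, Otx2 and Zic2), 2 lower (Dnmt3l and Dnmt3a) and 10 did not pass. Over all tested genes, 25.7% were called. Dnmt3l, the cofactor of the de novo DNA methyltransferases, read 116, 72.6, 109.97 and 112 CPM in the KO_ERRb_DBDm3 libraries, against 359, 323, 368 and 327 CPM in the KO_mock libraries (−1.74 ± 0.19, edgeR adjusted p = 0.00022). KO_ERRb_wt averaged 202 CPM and WT_mock 99.7 CPM. Dnmt3a fell by 0.71 ± 0.19 and Etv5 rose by 0.60 ± 0.087. Without clone 12-1 or clone 12-3 the list had 1 member called in each direction. The calls of Otx2, Zic2 and Dnmt3a were lost without clone 9-8, 12-1 or 12-3, and those of Dnmt3l and Etv5 were kept without any 1 clone.

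Genes of the early lineages were mostly at low levels. The counts of called genes below stand beside 25.7% of all tested genes called, with 2028 of 15238 lower. Of 10 primitive streak and mesoderm genes 3 were called lower, none higher, and 7 did not pass. These were the homeobox gene Evx1 on chromosome 6 (−3.93 ± 0.80), Cdx1 (−1.80 ± 0.44) and the T-box gene Eomes (−1.30 ± 0.20), which averaged 3.02 CPM in KO_ERRb_DBDm3 and 7.47 CPM in KO_mock. The call of Cdx1 was lost without clone 9-8, 12-1 or 12-3 (highest adjusted p = 0.12). Of 16 primitive endoderm genes 4 were called lower, Col4a1 and Col4a2 on chromosome 8 and the endocytic receptor genes Lrp2 (−0.83 ± 0.14) and Cubn (−1.73 ± 0.36), and 12 did not pass. The transcription factors Gata4, Gata6, Sox17 and Sox7 did not pass. The median log2 fold change of the 16 primitive endoderm genes was 0.050 in clone 9-6 and −1.04 in clone 9-8.

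The trophoblast list split, and its counts and those of the next lists stand beside 25.7% of all tested genes called. Of 10 tested members 2 were called higher, 5 lower and 3 did not pass. Tfap2c, an AP-2 factor of trophoblast and germ cells, read 100.1, 108, 187 and 175 CPM in the KO_ERRb_DBDm3 libraries, against 31.9, 41.3, 24.1 and 33.6 CPM in the KO_mock libraries (2.13 ± 0.26, edgeR adjusted p = 0.00035). Krt7, a simple epithelial keratin gene, rose by 2.69 ± 0.46. The caudal homeobox gene Cdx2 (−2.22 ± 0.48), Eomes, Tfap2a (−1.44 ± 0.25) and the keratin genes Krt8 (−1.52 ± 0.40) and Krt18 (−1.36 ± 0.27) fell, although Krt8 lost its call without clone 9-8, 12-1 or 12-3 and Cdx2 without clone 12-1. Of 7 neuroectoderm genes 3 were called higher (Pax6, Neurod1 and Map2), 2 lower (Nes and, on chromosome 8, Sox1) and 2 did not pass, with Pax6 at 2.34 CPM in KO_ERRb_DBDm3 and 0.538 CPM in KO_mock. Without clone 12-1 no neuroectoderm gene was called higher, and Neurod1 also lost its call without clone 9-8 or 12-3 and Map2 without clone 9-6 or 12-3. Pax6 also lost it without clone 9-8, and Nes without clone 9-8 or 12-3. Of the 5 tested fibroblast genes edgeR called 0, DESeq2 called 0, and 0 had an unadjusted p below 0.05.

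**Figure D3:**
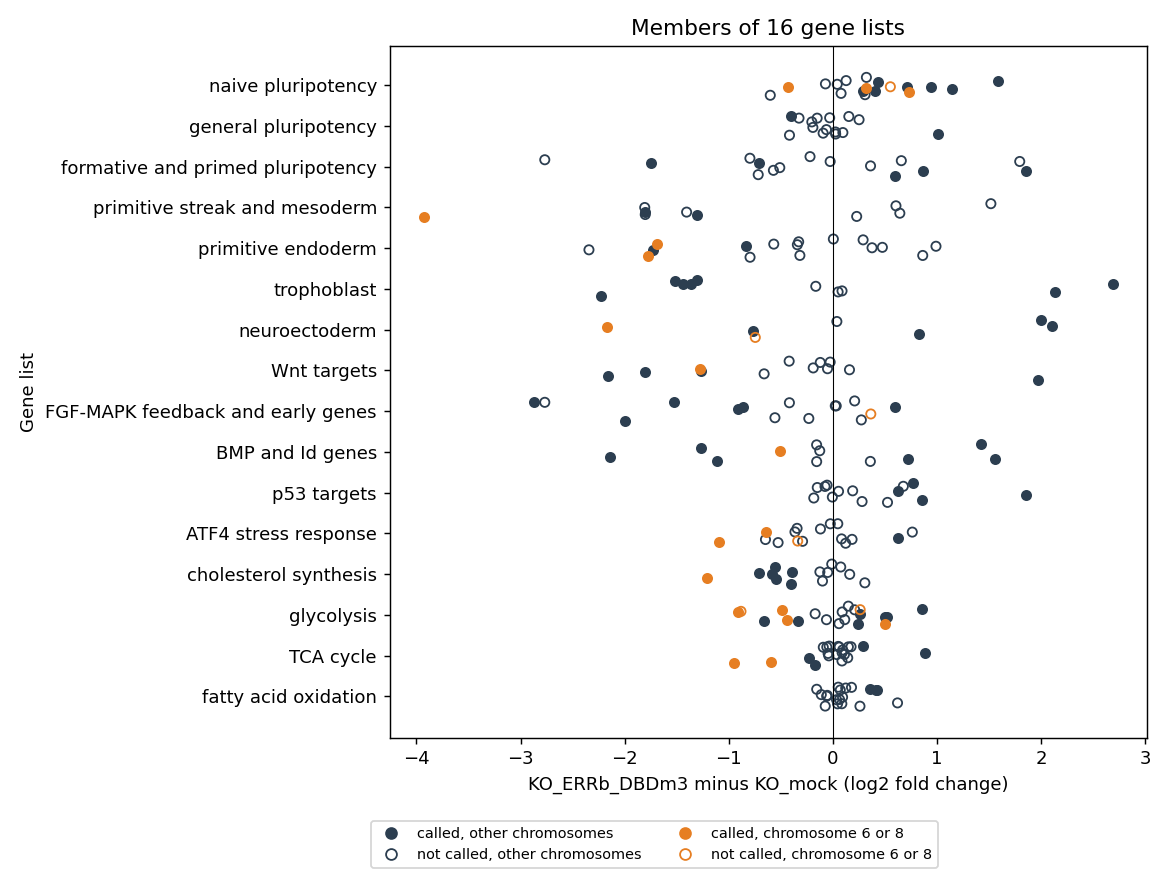
Log2 fold change of KO_ERRb_DBDm3 over KO_mock (x axis) for each tested member of 16 gene lists (y axis), filled where called and orange on chromosome 6 or 8. Called naive pluripotency genes lie right of 0 except Zfp42, called cholesterol synthesis, primitive streak and primitive endoderm genes lie left of it, called fatty acid oxidation and p53 genes lie right of it, and the other 10 lists have called members on both sides.

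Genes that report on signalling were called in both directions. Of 12 Wnt target genes 4 were called lower and 1 higher, beside 25.7% of all tested genes called. The Wnt inhibitor gene Dkk1 averaged 0.588 CPM in KO_ERRb_DBDm3 and 2.64 CPM in KO_mock (−2.16 ± 0.28, edgeR adjusted p = 5.0e-04), and Bmp4, Cdx1 and, on chromosome 8, Nkd1 were the others. Notum, a secreted enzyme that removes the lipid from Wnt proteins, read 90.3, 68.3, 152 and 141 CPM in KO_ERRb_DBDm3 libraries, against 31.8, 28.6, 26.9 and 28.01 CPM in KO_mock libraries (1.97 ± 0.25, adjusted p = 0.00048). Axin2, a general Wnt feedback gene, did not pass (−0.42, adjusted p = 0.070). The calls of Cdx1 and Nkd1 were lost without clone 9-8 or 12-1, and that of Cdx1 also without clone 12-3. Of 15 FGF and MAPK feedback and early genes 5 were called lower, Spry4, Spred1, Dusp6, Egr1 and Myc, and Etv5 higher. Dusp6, the ERK phosphatase gene, averaged 43.0 CPM in KO_ERRb_DBDm3 and 80.8 CPM in KO_mock (−0.91 ± 0.20, adjusted p = 0.0075). Without clone 12-1, 1 of the 15 was called lower, with Spry4, Spred1, Dusp6 and Myc having lost their calls.

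BMP and Id genes also split, and the counts of this and the next list stand beside 25.7% of all tested genes called. Of 11 members 3 were called higher (Bmp7, Id4 and Smad7), 4 lower (Bmp4, Id1, Id3 and, on chromosome 8, Smad1) and 4 did not pass. Id4, an inhibitor of basic helix-loop-helix factors, read 13.3, 16.5, 11.0 and 10.9 CPM in KO_ERRb_DBDm3 libraries, against 4.82, 4.86, 4.81 and 4.80 CPM in KO_mock libraries (1.42 ± 0.16, edgeR adjusted p = 0.00025). Its relative Id3 went the other way, with 10.5 CPM in KO_ERRb_DBDm3 and 46.6 CPM in KO_mock (−2.14 ± 0.43, adjusted p = 0.0053), although its call was lost without clone 9-8 (adjusted p = 0.077). Bmp7 lost its call without clone 9-8, 12-1 or 12-3, and Id1 without clone 9-8 or 12-1, and Smad1 turned to 0.039 with scaling within each chromosome. In the list of the LIF and STAT3 pathway, of 12 members Il6st (0.44 ± 0.086) and Pim3 (0.58 ± 0.095) were called higher and Lifr (−0.42 ± 0.073) lower. Lifr and Il6st encode the 2 chains of the LIF receptor. Without clone 9-6, 5 genes of that list were called lower, and the clone difference was called in 4 of the 12.

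ERR factors have known targets among metabolic genes, and the counts below stand beside 25.7% of all tested genes called in either direction. Of 19 fatty acid oxidation genes 3 were called higher (Slc25a20, Etfb and Acadvl), with log2 fold changes from 0.35 to 0.42, and 16 did not pass, with a median of 0.071. Without clone 12-1 none of the 19 was called, and Slc25a20 and Acadvl also lost their calls without clone 9-8 or 12-3. Of 21 TCA cycle genes 2 were called higher and 4 lower. Idh2, the mitochondrial isocitrate dehydrogenase gene, read 137, 198, 133 and 125 CPM in KO_ERRb_DBDm3 libraries, against 80.3, 80.9, 81.8 and 75.5 CPM in KO_mock libraries (0.89 ± 0.13, edgeR adjusted p = 0.00088), while KO_ERRb_wt averaged 128 CPM. The lower ones were Suclg1 and Suclg2 on chromosome 6, Sdhd and Dlst. Suclg1 turned to 0.032 with scaling within each chromosome. Without clone 12-3 none of these 4 was called, and without clone 9-8 Sdhd and Dlst were not. Of 20 glycolysis genes 6 were called higher and 5 lower, and 3 of the 5 lower ones (Hk2, Tpi1 and Gapdh) lie on chromosome 6. Gapdh turned to 0.22 with scaling within each chromosome. Without clone 12-1, 2 glycolysis genes were called higher and 2 lower.

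Of 14 cholesterol synthesis genes 7 were called lower, none higher, and 7 did not pass, with a median of −0.26, beside 2028 of 15238 tested genes called lower. Msmo1, a sterol demethylation enzyme gene on chromosome 8, averaged 123 CPM in KO_ERRb_DBDm3 and 283 CPM in KO_mock (−1.21 ± 0.14, edgeR adjusted p = 0.00031). Outside that chromosome, the lanosterol synthase gene Lss fell by 0.71 ± 0.13 and Hmgcs1, whose promoter stretch is printed above, by 0.41 ± 0.085. The count was 4 lower without clone 9-8, 12-1 or 12-3 and 8 without clone 9-6.

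Genes of the proteins that ERR beta works with stand beside the same 25.7% of all tested genes called. Of 12 genes of ERR relatives and nuclear receptor cofactors edgeR called 1, the Mediator subunit gene Med1 (−0.26 ± 0.070), and DESeq2 called 3. Of 10 TFIIH subunit genes both tools called 1, which in edgeR was Gtf2h5 (−0.34 ± 0.087). The call of Med1 was lost without clone 9-8, 12-1 or 12-3 (highest adjusted p = 0.12). That of Gtf2h5 was lost without clone 9-8 or 12-3 (highest adjusted p = 0.14).

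Imprinted, germline and interferon genes added large single changes, again beside 25.7% of all tested genes called. Of 16 imprinted genes 3 were called higher and 6 lower, with Peg10 (−1.76 ± 0.30) and Sgce (−1.56 ± 0.35), neighbours on chromosome 6, among the lower ones. Sgce lost its call without clone 9-8 (adjusted p = 0.067). Peg10 averaged 349.9 CPM in KO_ERRb_DBDm3 and 1184 CPM in KO_mock. Grb10, a growth-limiting adaptor gene, read 56.4, 41.6, 45.6 and 47.5 CPM in KO_ERRb_DBDm3 libraries, against 7.03, 7.34, 6.94 and 7.16 CPM in KO_mock libraries (2.75 ± 0.69, edgeR adjusted p = 0.017), but its call was lost without any 1 of the 4 clones, KO_mock clones included (highest adjusted p = 0.11). Of 15 germline genes Sycp3 (1.15 ± 0.19) and Mael (1.65 ± 0.32) were called higher and 13 did not pass, with a median of 0.64. Of 11 tested interferon response genes 3 were called higher, Oas1a (2.25 ± 0.43), Ifitm1 (0.80 ± 0.13) and Ifitm3 (0.78 ± 0.17), and Igtp lower (−1.07). Igtp lost its call without clone 9-8, 12-1 or 12-3, and Ifitm3 without clone 9-8 or 12-3. Of 8 muscle-type genes Myl2 and Ckb were called higher and Myl7 lower. Of 13 G1 cyclins and inhibitors the cyclin D3 gene Ccnd3 was called higher (0.65 ± 0.11), and Ccnd2 and Cdkn1b, both on chromosome 6, lower. The calls of Ckb and Cdkn1b were lost without clone 12-1 or 12-3, and that of Ckb also without clone 9-6, when clone 9-8 stood alone (adjusted p = 0.28).

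Taken singly, the clones gave very different numbers of calls against the same 2 KO_mock clones. Outside chromosomes 6 and 8, clone 9-8 had 2749 genes called higher (19.5% of 14064) and 2024 lower (14.4%). Clone 9-6 had 1092 called higher (7.78% of 14032) and 595 lower (4.24%). A lone clone is assumed to vary like the clones of the other groups, and both tests share their KO_mock clones. The difference between the clones was therefore tested itself. In clone 9-8 minus clone 9-6, 753 genes were called higher (5.35% of 14080) and 648 lower (4.6%) outside the 2 chromosomes. On chromosome 6 that difference was called lower in 329 of 753 genes and higher in 6, with a median of −0.54. On chromosome 8 it was called lower in 55 of 814 genes and higher in 35, with a median of −0.020.

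**Figure D4:**
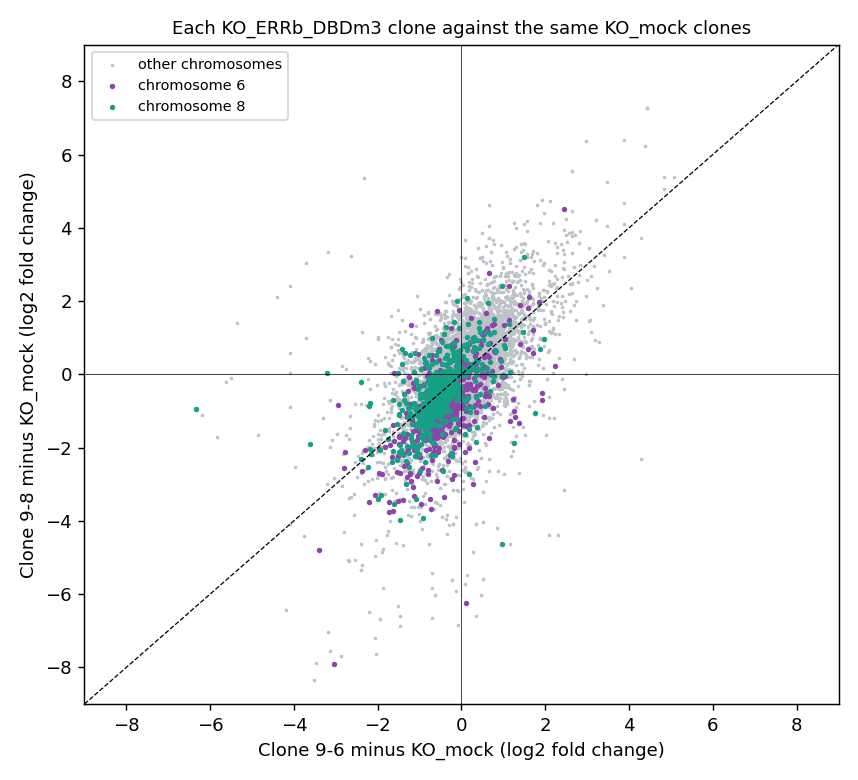
Log2 fold change over KO_mock of each gene in clone 9-8 (y axis) and clone 9-6 (x axis), coloured by chromosome, with the dashed line marking equal values. The plotted range leaves out 1 gene beyond 9 log2 units, and chromosome 6 genes lie mostly below the line, while the 2 axes share the same KO_mock clones.

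Several of the genes that separated the clones most were near their KO_mock levels in clone 9-6. P2rx7, an ATP-gated channel gene, read 31.3 and 31.7 CPM in clone 9-8 and 4.45 and 5.10 CPM in clone 9-6, with 3.27 to 3.67 CPM in KO_mock. The difference was 2.72 on the log2 scale (edgeR adjusted p = 1.8e-05). Ano3, an anoctamin gene, read 33.5 and 34.0 CPM in clone 9-8 and 4.92 and 3.15 CPM in clone 9-6, with 2.69 to 3.27 CPM in KO_mock (difference 3.04, adjusted p = 0.0065). Perp, Zfp951 and Cfap43 followed the same pattern, with differences from 2.27 to 2.34. Among genes lower in clone 9-8, Serpinf1 (−3.73), the ubiquitin-like conjugating enzyme gene Ube2l6 (−3.83) and the troponin gene Tnni1 (−3.54) were near KO_mock levels in clone 9-6 and below 1 CPM in clone 9-8.

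Genes of the p53 and ATF4 lists differed between the clones. The clone difference was called in 9 of 14 p53 target genes and in 10 of 16 genes of the ATF4 stress response, beside 1817 of the 15238 genes of the main test. Mdm2, the ubiquitin ligase gene that p53 switches on, read 278 and 284 CPM in clone 9-8 and 137 and 128 CPM in clone 9-6, with 121 to 138 CPM in KO_mock (difference 1.08, edgeR adjusted p = 0.017). Trp53inp1 read 957 and 992 CPM in clone 9-8 and 520.3 and 535 CPM in clone 9-6, with 396 to 423 CPM in KO_mock (difference 0.88, adjusted p = 0.010). The p53 target Cdkn1a did not differ past the threshold (−0.15, adjusted p = 0.45). Psat1, a serine synthesis gene, read 305 and 308 CPM in clone 9-8 and 572 and 575 CPM in clone 9-6, with 544 to 582 CPM in KO_mock (difference −0.91, adjusted p = 0.00012). Asns, the asparagine synthetase gene on chromosome 6, went the same way (−0.86), and Mthfd2, also on chromosome 6, differed by −1.47. In the 2-group comparison 4 p53 targets were called higher (Sesn2, Trp53inp1, Bbc3 and Perp), and without clone 12-3 none was, while without clone 9-8 or 12-1 only Sesn2 was.

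Among the 4 compared clones, the Y-linked genes Uty and Ddx3y were lowest in clone 9-8, and WT_mock clone 5-2 read lower still. Eif2s3y read 1.14 CPM in clone 9-8 and 12.4 CPM in clone 9-6, with 17.5 and 16.4 CPM in the KO_mock clones. For that gene clone 5-2 read 5.21 CPM, above clone 9-8, and the clone difference (−3.44) did not pass. Erdr1 was not lowered in clone 9-8, with 81.0 CPM against 68.4 and 61.4 CPM in the KO_mock clones. Uty read 11.2 and 12.0 CPM in clone 9-8 and 54.4 and 53.03 CPM in clone 9-6, with 55.2 to 63.5 CPM in KO_mock, and Ddx3y read 13.9 and 15.7 CPM in clone 9-8 and 51.2 and 49.1 CPM in clone 9-6, with 44.9 to 49.2 CPM in KO_mock. Neither difference passed (adjusted p = 0.57 for Uty and 0.66 for Ddx3y). The 2-cell-like genes Zscan4c, Zscan4d and Usp17lb were below 1 CPM in all 8 libraries and not called between the groups, but Zscan4d read 0.604 and 0.536 CPM in clone 9-8 and 0 in both libraries of clone 9-6 (clone difference, edgeR adjusted p = 0.0061). Of the 3 genes 2 had an unadjusted p below 0.05 between the groups in edgeR, and DESeq2 called 0. Clone 9-8 alone was called higher than KO_mock in Zscan4c (adjusted p = 0.0094), Zscan4d (adjusted p = 0.00073) and Usp17lb (adjusted p = 0.0055), and without clone 9-6, 4 of 5 tested genes of the 2-cell-like list were called higher.

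Set against wild-type ERR beta in the same knockout, KO_ERRb_DBDm3 had 2271 genes called higher (16.6% of 13707) and 1633 lower (11.9%) outside chromosomes 6 and 8. Some genes that stood above KO_mock were not shown to differ from KO_ERRb_wt. Idh2 (0.20, edgeR adjusted p = 0.24), Nanog (−0.014, adjusted p = 0.89), Tfcp2l1 (0.17, adjusted p = 0.093) and Ccnd3 (0.19, adjusted p = 0.20) did not pass in that test. Others lay away from both. Bmp4 averaged 4.35 CPM in KO_ERRb_DBDm3, 29.2 CPM in KO_ERRb_wt and 10.5 CPM in KO_mock, and fell below KO_ERRb_wt by 2.74 on the log2 scale (adjusted p = 4.9e-05). Notum averaged 113 CPM in KO_ERRb_DBDm3, 13.6 CPM in KO_ERRb_wt and 28.8 CPM in KO_mock, 3.05 above KO_ERRb_wt on the log2 scale (adjusted p = 5.0e-05). Of the 18 naive pluripotency genes 10 differed between KO_ERRb_DBDm3 and KO_ERRb_wt, as did 4892 of all 15238 tested genes.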

How the data were processed

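Per the labels' protocols, total RNA was depleted of ribosomal RNA and sequenced as strand-specific single-end reads of 100 bases. Per the submitters' processing notes, the authors aligned reads with STAR 2.7.8a to mm10. The deposited file holds read counts per gene symbol from featureCounts (2.0.1 per the file header, 2.0.10 per the processing notes). Per the file header, reads were counted on exons by strand, and a read in overlapping genes counted for each. Genes of multi-copy families may be uncertain.

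The 2 libraries of a clone differed by more than counting noise (mean chi-square per gene 2.47 to 19.2, against 1) and were summed. In edgeR 4.0.16 (R 4.3.3), filterByExpr, TMM and a robust quasi-likelihood fit over all 14 clones were used (7 residual degrees of freedom, prior count 0.125), with Benjamini-Hochberg adjustment. Standard errors were obtained by dividing each log2 fold change by the root of its F statistic. With 2 clones a group, the tests see only how clones vary. The fit was also run on simulated counts, and the outcome is not reported here.

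Named genes were, outside chromosomes 6 and 8, the 12 highest and 12 lowest called genes whose average log2 CPM reached 1 and whose clones did not overlap. There were 4 and 4 on chromosome 6 and on chromosome 8, 6 and 6 between the clones, and up to 4 per list by smallest p. Other list members were named after their values were seen. Predicted genes were passed over, and a few genes that the rule names are not reported here. The comparison, lists and rules were chosen with earlier results of these data known.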

Additional observations from a re-analysis of the deposited data

Results flagged for a closer look

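The 2 KO_ERRb_DBDm3 clones moved in opposite directions against the same KO_mock clones in 24 genes outside chromosomes 6 and 8, each called in both single-clone tests and in the test of clone 9-8 minus clone 9-6. Most genes called in both single-clone tests there moved the same way in both clones. Of the 24, the 8 named genes with the smallest p of the clone difference and a mean log2 CPM of at least 1 are given with that difference. Higher in clone 9-8 were the collagen lysyl hydroxylase gene Plod2 (1.52), the endocytic receptor gene Lrp1 (1.14), the topoisomerase gene Top2b (0.85), the costimulatory ligand gene Cd80 (1.58) and the p53 relative Trp73 (1.61). Lower in clone 9-8 were the calcium-binding protein gene Rcn1 (−0.83), the elongation factor kinase gene Eef2k (−1.03) and the adhesion molecule gene Cadm4 (−1.90). Plod2 averaged 64.2 CPM in clone 9-8 and 22.3 CPM in clone 9-6, with 31.6 and 32.0 CPM in the KO_mock clones. Eef2k averaged 37.2 CPM in clone 9-8 and 75.7 CPM in clone 9-6, with 54.5 and 50.6 CPM in the KO_mock clones. None of these 8 genes was called between the 2 groups, and clone origin and clone-specific change cannot be told apart with 1 clone on each side.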

How the results depend on the processing

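DESeq2, RLE factors, TMM factors without chromosomes 6, 8 and 14, and no filter left the counts of called genes, in all and by chromosome, and the count over all lists within 1.5 times their reported values. Single lists moved more: DESeq2 called 3 genes in place of 1 among the ERR relatives and cofactors, and 5 in place of 3 in the ATF4 and in the G1 list. For the single clones, their difference and the comparison with KO_ERRb_wt, DESeq2, RLE and no filter were chosen after seeing the data. The count of called genes was 287 with only the 4 clones in the fit (141 outside chromosomes 6 and 8, 24 on chromosome 6, 122 on chromosome 8, and 11 of 109 list members), where 2 residual degrees of freedom remain by construction. With libraries in place of clone sums it was 6436 without a replicate block (5362 outside, 174 list members) and 6471 with the replicate block (5398 outside, 173 list members), since libraries of a clone then count as replicates. Differences between libraries 1 and 2 correlated between −0.10 and 0.14 among the 6 pairs of the 4 compared clones, so the replicate numbers were not taken as pairing them, and between −0.25 and 0.67 among all 66 pairs of clones with 2 libraries. Scaling within each chromosome gave 184 calls on chromosome 6 and 186 on chromosome 8, and turned Suclg1 (0.032), Gapdh (0.22) and Smad1 (0.039) to positive values, none of them called. Leaving out 1 clone gave 1673 to 5786 calls in all, 1049 to 4773 outside chromosomes 6 and 8, 246 to 518 on chromosome 6, and 59 to 157 list members. The chromosome medians moved between −0.94 and −0.41 on chromosome 6 and between −0.54 and −0.51 on chromosome 8. The share of calls outside the 2 chromosomes that were higher was 61.9% as reported and 53% with TMM factors without chromosomes 6, 8 and 14. Of 116 named genes called, 115 kept their calls with DESeq2, 102 without the filter, 84 to 113 without 1 clone, and 17 with only the 4 clones in the fit. The cause of the dependence on single clones was not tested. Genes near 1 CPM rest on fewer counts than genes at higher levels, and how small a difference could be detected there was not tested.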
